A study of Mus musculus with 4 samples.

Results

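The genes described here are 10 widely used transcriptional targets of canonical Wnt signalling: Axin2, Lef1, Tcf7, Nkd1, Nkd2, Notum, Sp5, Rnf43, Znrf3 and Lgr5. They were chosen by name as known targets and feedback regulators of the pathway, with earlier results of these data known. All 10 were found among the 49997 genes of each count table, and all 10 passed the filter on low counts that left 19837 genes to test. No member had fewer than 115 reads in any library.

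In canonical Wnt signalling, a Wnt ligand bound to Frizzled and Lrp5 or Lrp6 stops the destruction complex, built on Apc and Axin, from marking beta-catenin for breakdown. Beta-catenin then enters the nucleus and, with the DNA-binding proteins Lef1 and Tcf7 and their relatives, activates target genes. Many of these targets act back on the pathway: Axin2 rebuilds the destruction complex, Nkd1 and Nkd2 bind Dishevelled, Notum inactivates Wnt ligands outside the cell, and the ubiquitin ligases Rnf43 and Znrf3 remove Frizzled from the cell surface unless R-spondins and Lgr receptors such as Lgr5 hold them back. In the aorta-gonad-mesonephros region (AGM), where blood stem cells arise in the embryo, Wnt signalling is known to take part in their emergence.

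RNA was measured in 4 libraries of C57BL/6J mouse AGM explants, 2 untreated and 2 treated with 5 µM CCCP for 48 hours, a protonophore that collapses the proton gradient across the inner mitochondrial membrane. All 4 were cultured for 48 hours on a membrane filter at the gas-liquid interface in MyeloCult medium with hydrocortisone. By the growth protocol the embryos were E10.5 and E11.5, by the series design E10.5 alone. The comparison asks how mitochondrial activity bears on the maturation of embryonic blood stem cells. No vehicle for the untreated explants and no number of embryos per library is stated in the labels, and no label says that replicates came from separate cultures, so p-values measure the spread between these libraries, which may be technical. The labels name blood stem cells (the design text, c-kit+ cells) whereas RNA was extracted from explants by the protocol. Kit was at 47.6 to 63.2 CPM (read counts relative to library size, scaled between libraries by TMM). Of 14 markers of blood stem and progenitor cells, 13 passed the filter on low counts, among them Runx1 at 8.88 to 20.1 CPM and Mecom at 44.1 to 58.9 CPM. Gfi1, a factor of emerging blood stem cells, did not pass, at 0.107 to 0.247 CPM. The 10 mesenchymal markers together held 3266 to 5609 CPM, against 174 to 232 CPM for the 14 markers of blood stem and progenitor cells. Sums over unlike genes do not measure shares of cells, and Col3a1 alone gave 1306 to 2303 CPM of the mesenchymal sum. In a mixed tissue, fewer cells of a type and less RNA per cell cannot be told apart.

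The libraries held 37360968 to 48827826 counted reads, replicate 1 being the deeper library in each group. No pair of libraries agreed within counting noise. The chi-square per degree of freedom over genes, which also grows with depth, was 59.1 for the untreated pair and 38.8 for the CCCP pair, and untreated replicate 2 was nearer to CCCP replicate 2 (41.9) than to untreated replicate 1. The marker list that moved furthest with treatment was hepatic: its 11 genes summed to 1721 and 986 CPM in the untreated libraries and to 53.9 and 109 CPM in the CCCP libraries, with 11 of 11 lower in each CCCP library than in either untreated one (24.8% of all genes tested); Ahsg was at 0 in CCCP replicate 1. Its part in the values below was not tested.

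Of the 10 genes, 5 lie on chromosome 11 of mm10 (Axin2, Tcf7, Notum, Rnf43 and Znrf3), a chromosome that holds 7.75% of the genes tested. The RefSeq promoter table, on GRCm38.p6, held 12 start sites for 7 of the 10 genes (Sp5, Lef1, Nkd1, Tcf7, Rnf43, Axin2 and Nkd2). The 250 bases before each start were searched on both strands for the TCF/LEF core, CTTTG followed by 2 bases that are each A or T. A match was found in 14.8% of all 32851 windows in the table, and in 2 of the 12 member windows. The windows are shown for the pair with a match, Sp5 and an internal start of Lef1. They are also shown for Axin2, the most used reporter gene of the pathway, and Nkd1, the member with the smallest p-value of the comparison. The starts of Axin2 (108920349) and Nkd1 (88527633) are internal too, since their gene spans begin at 108917828 and 88521342. The bases before those first positions were not searched. Each window is written 5′ to 3′ on the strand of the gene, the plus strand in all 4, with matches in capitals.
Sp5, chr2:70474673-70474922: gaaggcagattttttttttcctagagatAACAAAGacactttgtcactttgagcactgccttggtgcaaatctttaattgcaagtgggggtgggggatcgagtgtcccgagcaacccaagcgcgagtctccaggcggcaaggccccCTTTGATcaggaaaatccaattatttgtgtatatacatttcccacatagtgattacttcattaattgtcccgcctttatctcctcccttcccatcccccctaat
Lef1, chr3:131156044-131156293: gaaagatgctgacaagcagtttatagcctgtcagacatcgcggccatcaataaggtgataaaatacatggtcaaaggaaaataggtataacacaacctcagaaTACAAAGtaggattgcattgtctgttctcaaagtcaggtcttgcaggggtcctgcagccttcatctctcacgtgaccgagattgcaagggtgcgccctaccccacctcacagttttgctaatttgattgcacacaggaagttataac
Axin2, chr11:108920099-108920348: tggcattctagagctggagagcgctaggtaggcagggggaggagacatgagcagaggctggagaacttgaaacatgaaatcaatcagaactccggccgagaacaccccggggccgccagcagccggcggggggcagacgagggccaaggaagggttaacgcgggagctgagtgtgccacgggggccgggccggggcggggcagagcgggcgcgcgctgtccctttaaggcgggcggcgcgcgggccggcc
Nkd1, chr8:88527383-88527632: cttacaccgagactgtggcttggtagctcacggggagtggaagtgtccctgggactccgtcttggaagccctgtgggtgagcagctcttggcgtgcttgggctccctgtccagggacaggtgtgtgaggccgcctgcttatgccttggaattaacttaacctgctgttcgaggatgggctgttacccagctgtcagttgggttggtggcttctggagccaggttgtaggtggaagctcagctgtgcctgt
The matches of Sp5 began 222 and 104 bases before the start site, the nearer being CTTTGAT on the strand of the gene and the farther AACAAAG, which reads CTTTGTT on the other strand. The match of Lef1, TACAAAG, began 147 bases before the internal start. None of the 4 windows overlapped an exon of the deposited tables. A match is a description of letters, not of binding, and no match says only that these letters are not in the window.

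Levels were compared between genes as RPKM, CPM divided by the kilobases of exon. The highest level was that of Nkd1, at 23.4 ± 4.23 RPKM (mean ± SD over all 4 libraries), followed by Axin2 at 20.6 ± 1.75 RPKM and Nkd2 at 13.5 ± 2.21 RPKM. The intracellular feedback regulators were thus the most abundant members. Lef1 stood at 8.37 ± 0.897 RPKM, Notum at 6.02 ± 1.04 RPKM, Znrf3 at 3.80 ± 0.561 RPKM and Tcf7 at 2.69 ± 0.572 RPKM. Lgr5 at 2.45 ± 0.995 RPKM, Sp5 at 1.71 ± 0.229 RPKM and Rnf43 at 1.47 ± 0.127 RPKM closed the order. Among the 19837 genes tested, Nkd1 was higher than 85.3% and Rnf43 higher than 35.9%. Neighbours in this order overlapped across libraries for Nkd1 and Axin2, and for each step from Tcf7 through Lgr5 and Sp5 to Rnf43, so their order is not set by these data. The ranges of Notum and Znrf3 also overlapped across libraries. Within every library Notum was the higher of the pair, by 4.48 against 3.90 RPKM in untreated replicate 1. The steps from Axin2 to Nkd2, Nkd2 to Lef1, Lef1 to Notum and Znrf3 to Tcf7 held in every library with no overlap of the ranges. The level of Rnf43 is uncertain: its deposited exon length of 9076 bases counts 4538 bases on chromosome 11 and a further copy on an alternate contig. RPKM here uses the 4538 bases. Reads that align to both copies would not have been counted. It also shares 227 exon bases with 1110028F11Rik on the same strand, a gene with 0 to 13 counted reads per library, and reads that fall on both genes were not counted.

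**Figure D1:**
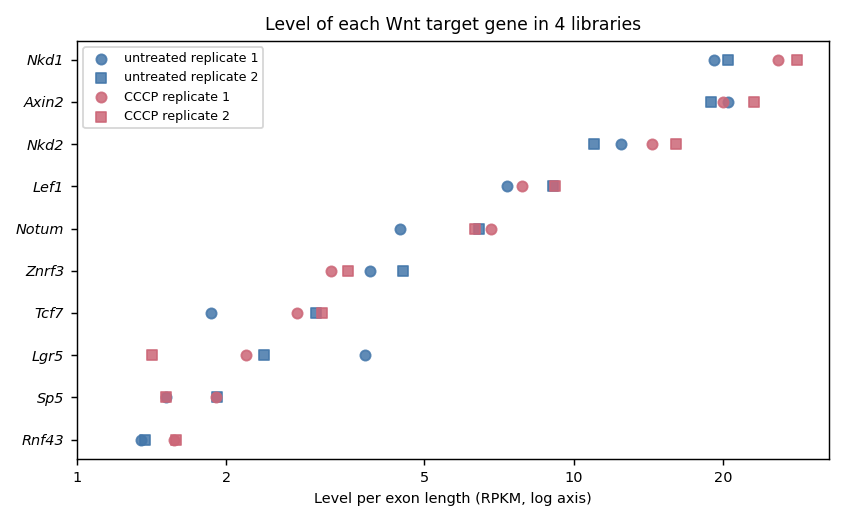
Level of the 10 Wnt target genes in RPKM (horizontal log axis) in each of 4 libraries, genes ordered by their mean; colour gives the group and shape the replicate. Nkd1, Axin2 and Nkd2 lie above 10 RPKM in every library, and Rnf43 and Sp5 lie below 2 RPKM in every library.

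No member passed the test between CCCP and untreated explants. In the quasi-likelihood test of edgeR, adjusted by Benjamini-Hochberg over all 19837 genes, 0 of 10 members had an adjusted p-value under 0.05, and so did 0.0% of all genes, whose smallest adjusted p-value was 0.122. DESeq2 called none of the 10 either, while it called 594 genes, 3.32% of those it gave an adjusted p-value. Adding a replicate block to the edgeR fit called Nkd1 and Lgr5, where it called 10.7% of all genes. With the length trend removed as well it called 4 members, where it called 7.74%. The labels give the replicate numbers no meaning, so the block is no pairing from the design, and its values stand in the last section. At an unadjusted p under 0.05 there were 3 of 10 members, Nkd1 and Nkd2 higher in CCCP and Lgr5 lower, where 14.6% of all genes reached that level (5.45% higher, 9.16% lower). For 3 members (Nkd1, Nkd2 and Rnf43) the lower CCCP library was above the higher untreated one, and for 2 (Znrf3 and Lgr5) the reverse held. These 5 of 10 are close to the background, since the groups did not overlap for 48.8% of all genes (24.0% higher, 24.8% lower).

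**Figure D2:**
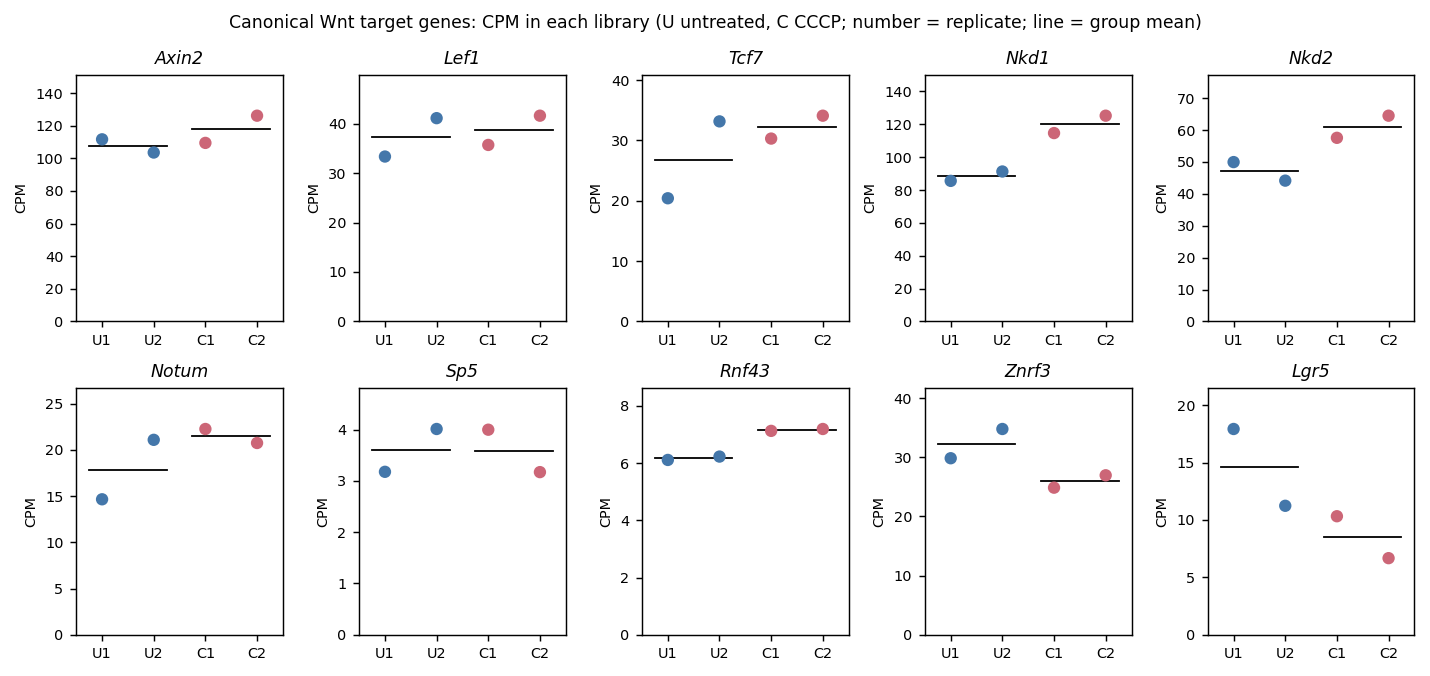
CPM of each Wnt target gene (vertical axis from 0, scaled per panel) in untreated replicates 1 and 2 (U1, U2) and CCCP replicates 1 and 2 (C1, C2), with a line at each group mean. Nkd1, Nkd2 and Rnf43 are higher in both CCCP libraries, Znrf3 and Lgr5 lower, and the groups of the other 5 genes overlap.

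Among the intracellular feedback regulators, the Naked genes had the clearest separation and Axin2 had none. Nkd1 (chromosome 8, 88521342 to 88594887, plus strand), a Dishevelled-binding antagonist, was at 85.6 and 91.3 CPM without treatment and at 115 and 125 CPM with CCCP. Both CCCP libraries lay above both untreated ones, and the gap between the groups was wider than the gap within either. Its log2 fold change was 0.44 (SE 0.12, 95% interval 0.16 to 0.72), and its adjusted p-value in edgeR was 0.229. This is a fold of 1.36, and its unadjusted p-value of 0.00878 ranked 759 among the genes tested.

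Nkd2 (chromosome 13, 73818534 to 73847631, minus strand), its paralogue, was at 50.0 and 44.1 CPM without treatment and at 57.6 and 64.5 CPM with CCCP. Again both CCCP libraries were the higher. The log2 fold change was 0.37 (SE 0.13, 95% interval 0.06 to 0.69), and its adjusted p-value in edgeR was 0.296. Both Naked genes kept a positive log2 fold change whichever library was left out, from 0.38 to 0.52 for Nkd1 and from 0.30 to 0.48 for Nkd2. With the GC trend removed the values were lower, 0.32 for Nkd1 and 0.25 for Nkd2. With the length trend removed they were 0.48 and 0.39. The ratio of Nkd1 to Nkd2 in RPKM was 1.54 and 1.86 without treatment and 1.79 and 1.75 with CCCP, so it did not separate the groups.

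Axin2 (chromosome 11, 108917828 to 108950783, plus strand), the scaffold that limits beta-catenin, was at 112 and 104 CPM without treatment and at 109 and 126 CPM with CCCP. CCCP replicate 1 lay between the untreated libraries, so the groups overlapped. Its log2 fold change was 0.13 (SE 0.13, 95% interval -0.18 to 0.44), and its adjusted p-value in edgeR was 0.646. The interval leaves out a fold above 1.35 or below 0.885. With the trend of each library with GC content removed, the value was -0.0075, on the other side of 0. It was 0.22 with the length trend removed, 0.07 with total counts as the only scaling, 0.03 without CCCP replicate 2 and 0.24 without CCCP replicate 1.

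The log2 fold changes of the regulators that act at the cell surface differed in sign. Znrf3 (chromosome 11, 5276329 to 5444847, minus strand) was at 29.8 and 34.8 CPM without treatment and at 24.9 and 27.0 CPM with CCCP. Both CCCP libraries were the lower, and the log2 fold change was -0.32 (SE 0.15, 95% interval -0.68 to 0.04; edgeR adjusted p-value 0.376). Fold changes over all genes were lower for longer exons (Spearman's rho -0.361 across 19837 genes, which are not independent replicates), and Znrf3 has 7.66 kb of exon against a median of 3.36 kb. With that trend removed its value was -0.13, and without untreated replicate 2 it was -0.17. Other settings moved it the other way, to -0.39 with the GC trend removed, -0.42 without untreated replicate 1 and -0.37 without CCCP replicate 2.

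Rnf43 (chromosome 11, 87663087 to 87735539, plus strand), the paralogue of Znrf3, was at 6.11 and 6.23 CPM without treatment and at 7.13 and 7.19 CPM with CCCP. The groups did not overlap, and each pair of replicates was closer than the gap between groups, on 233 to 346 reads per library. The log2 fold change was 0.21 (SE 0.21, 95% interval -0.31 to 0.74; edgeR adjusted p-value 0.658), and 0.06 with the GC trend removed. The ratio of Znrf3 to Rnf43 in RPKM was 2.89 and 3.31 without treatment and 2.07 and 2.22 with CCCP. Both CCCP ratios were below both untreated ratios. This follows from the single genes, since Znrf3 was lower and Rnf43 higher in both CCCP libraries. The ratio adds no separate result, and it carries the uncertainty in the level of Rnf43. With 2 libraries in each group, 0.333 is the smallest two-sided p that an exact permutation test of such a ratio can reach, so none is given.

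Lgr5 (chromosome 10, 115450314 to 115587780, minus strand), a receptor for R-spondins and a marker of Wnt-dependent stem cells in several epithelia, had the lowest log2 fold change of the 10. It was at 17.9 and 11.2 CPM without treatment and at 10.3 and 6.67 CPM with CCCP. The lower untreated library was close to the higher CCCP library, and replicate 1 was the higher in each group. The log2 fold change was -0.78 (SE 0.32, 95% interval -1.55 to -0.0005), a level 1.71-fold higher in untreated explants, with an edgeR adjusted p-value of 0.342. Without untreated replicate 1 it was -0.39, without CCCP replicate 2 -0.49, and without CCCP replicate 1 -1.12. Summed markers of the mesenchyme were also higher in replicate 1 of each group (5609 against 3266 CPM untreated, 4734 against 3640 CPM in CCCP), as were those of mesonephros and gonad (327 against 245 CPM, and 320 against 254 CPM) and of neural cells and neural crest (1029 against 929 CPM, and 1137 against 1006 CPM). Of the 10 genes of each list, 8 mesenchymal, 8 mesonephros and gonad and 6 neural markers were higher in replicate 1 of both groups, as were 31.0% of all genes tested. Twist1, Cdh1 and Sox10 were higher in replicate 2 of both. Of the 10 erythroid and the 10 endothelial markers, 0 were higher in replicate 1 of both groups. The endothelial sum was higher in replicate 2 of the untreated group (661 against 510 CPM) but not in CCCP (505 against 515 CPM). The erythroid sum was higher in replicate 2 of each group (2549 against 2330 CPM untreated, 3697 against 2592 CPM in CCCP). Hbb-y alone gave 1643 CPM of the sum in untreated replicate 2 and 1403 CPM in untreated replicate 1. Hba-a1, Slc4a1, Klf1 and Epor were higher in untreated replicate 1, and the other erythroid markers in untreated replicate 2. All 10 markers of each list were detected, and their part in the Lgr5 values was not tested.

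Notum (chromosome 11, 120653788 to 120661193, minus strand), the secreted enzyme that strips the lipid from Wnt ligands, was at 14.7 and 21.1 CPM without treatment and at 22.3 and 20.8 CPM with CCCP. Untreated replicate 1 alone stood low, and the other 3 libraries lay between 20.8 and 22.3 CPM. The log2 fold change of 0.27 (SE 0.21, 95% interval -0.25 to 0.79; edgeR adjusted p-value 0.575) became 0.04 when untreated replicate 1 was left out and 0.59 when untreated replicate 2 was. It was 0.09 with the GC trend removed.

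The transcription factors did not separate the groups. Lef1 (chromosome 3, 131110297 to 131224357, plus strand), which binds DNA for beta-catenin, was at 33.3 and 41.1 CPM without treatment and at 35.7 and 41.6 CPM with CCCP. Replicate 2 was the higher in each group by more than the groups differed. The log2 fold change was 0.05 (SE 0.16, 95% interval -0.33 to 0.44; edgeR adjusted p-value 0.896). Its sign turned with total counts as the only scaling (-0.0026), without untreated replicate 1 (-0.08) and without CCCP replicate 2 (-0.05).

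Tcf7 (chromosome 11, 52246527 to 52283383, minus strand), a relative of Lef1 best known from T cells, was at 20.4 and 33.2 CPM without treatment and at 30.3 and 34.1 CPM with CCCP. As with Notum, untreated replicate 1 stood apart from the other 3. The log2 fold change was 0.27 (SE 0.24, 95% interval -0.32 to 0.85; edgeR adjusted p-value 0.625), and it was -0.03 when untreated replicate 1 was left out and 0.69 when untreated replicate 2 was. Tcf7 has 10.9 kb of exon, and with the length trend removed its value was 0.54, with the GC trend removed 0.16. Of its exon bases, 332 (3.03%) overlap Skp1 on the opposite strand, and the counting did not use strand. Of 12 markers of T and innate lymphoid cells, 7 passed the filter on low counts, Cd3d was at 0 in every library, and the list summed to 69.8 to 92.2 CPM untreated and 72.3 to 77.5 CPM in CCCP, most of it Bcl11b at 43.9 to 68.7 CPM.

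Sp5 (chromosome 2, 70474923 to 70477726, plus strand), a zinc-finger factor whose upstream window is printed above, was at 3.18 and 4.01 CPM without treatment and at 4.00 and 3.17 CPM with CCCP. The group means were 3.59 and 3.58 CPM. Its log2 fold change was -0.0005 (SE 0.30, 95% interval -0.73 to 0.73; edgeR adjusted p-value 0.999). On 115 to 194 reads per library, a fold of up to 1.65 in either direction lies within that interval. The sign of so small a value turned under several settings.

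**Figure D3:**
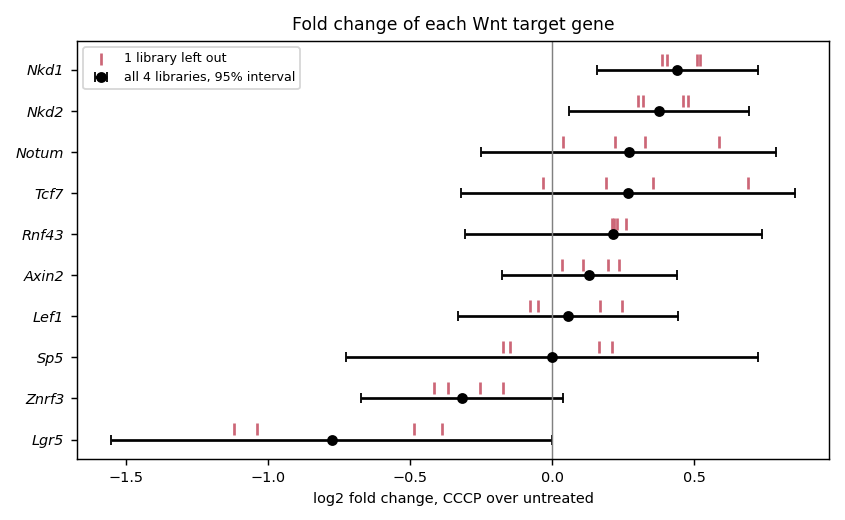
Log2 fold change of CCCP over untreated for each Wnt target gene (horizontal axis), with the 95% interval of edgeR's fit as a bar and the values with 1 library left out as ticks above it. The intervals of Nkd1 and Nkd2 lie above 0, that of Lgr5 reaches -0.0005, and the ticks of Tcf7 run from -0.03 to 0.69.

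Over the 10 members the median log2 fold change was 0.17, with 7 positive and 3 negative, against -0.0077 over all genes tested, 49.2% of them positive. Leaving out untreated replicate 1 gave a median of 0.0023, and leaving out untreated replicate 2 gave 0.25. Nkd1, Lef1, Tcf7, Notum and Rnf43 had their lowest values in untreated replicate 1. The median was also lower with the GC trend removed (0.07) and with total counts as the only scaling (0.11). Fold changes over all genes were higher at higher GC content (Spearman's rho 0.374 across 17929 genes, which are not independent replicates). All members but Lef1 (46.1%) and Lgr5 (44.7%) had a GC content above the median of 49.9% of genes tested.

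Other genes of the pathway were read from 6 lists, and none of their genes passed in edgeR. At an unadjusted p under 0.05 the numbers higher and lower in CCCP were 3 and 3 in the destruction complex and signal relay list, 3 and 1 among nuclear partners, 3 and 0 among ligands, 1 and 2 among receptors, 0 and 0 among secreted antagonists, and 1 and 1 among other targets. Together these are 18 of 114 genes (15.8%), near the 14.6% of all genes, with 9.65% higher and 6.14% lower against 5.45% and 9.16% of all genes. DESeq2 called 3 of the 110 genes it gave an adjusted p-value (2.73%, against 3.32% of all genes), Apc, Wnt6 and Fzd3. In the destruction complex and signal relay list, 0 of 21 genes passed and the median log2 fold change was 0.08. Dvl2, a Dishevelled protein that relays the signal from Frizzled, was at 70.4 and 77.0 CPM untreated and at 91.0 and 104 CPM in CCCP (log2 fold change 0.40, edgeR adjusted p-value 0.272, and 0.24 with the GC trend removed). Apc, the destruction complex scaffold, was at 319 and 246 CPM untreated and at 148 and 167 CPM in CCCP. Its log2 fold change was -0.84, with an adjusted p-value of 0.167 in edgeR and 0.00122 in DESeq2. Apc has 13.6 kb of exon, and its value was -0.48 with the length trend removed.

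Among the nuclear partners of beta-catenin, 0 of 17 passed, with a median of -0.0069. Tle5, a short member of the Groucho corepressor family, had 0.41 (edgeR adjusted p-value 0.242), which was 0.24 with the length trend removed. Ep300, a histone acetyltransferase, had -0.36 (edgeR adjusted p-value 0.278), which was -0.13 with the length trend removed. Of 25 genes for Wnt and R-spondin ligands and their secretion, 0 passed, the median was 0.14 and 17 were positive. Wnt6 was at 26.5 and 30.4 CPM untreated and at 43.5 and 58.6 CPM in CCCP, a log2 fold change of 0.84 with an adjusted p-value of 0.186 in edgeR and 0.00764 in DESeq2. Wnt2b had -0.56 (edgeR adjusted p-value 0.353), on 153 to 333 reads per library. Of its exon bases, 1454 (40.7%) overlap St7l on the opposite strand, a gene with 917 to 1299 reads. The counting did not use strand, and reads that fall on both genes were not counted.

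Of 17 Wnt and R-spondin receptors, 0 passed and the median was 0.12. Fzd2 had 0.31 (edgeR adjusted p-value 0.310), which was 0.15 with the GC trend removed. Fzd3 was at 204 and 209 CPM untreated and at 120 and 140 CPM in CCCP, a log2 fold change of -0.67 with an adjusted p-value of 0.166 in edgeR and 0.00378 in DESeq2. Its exons span 12.7 kb, and the value was -0.34 with the length trend and -0.37 with the GC trend removed. Of 11 secreted antagonists tested, 0 passed and the median was 0.10, with Sfrp5 at 0.79 (edgeR adjusted p-value 0.382) and Dkk2 at -0.38 (0.538). Sfrp5 was at only 1.31 to 3.14 CPM, and its value was 0.64 with the length trend and 0.62 with the GC trend removed. The groups overlapped for Dkk2, whose value was 0.0065 without untreated replicate 1.

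A further list held 27 other reported beta-catenin targets, of which 23 were tested and 0 passed. Its median was -0.03, with 10 positive and 13 negative. Twist1, a mesenchymal transcription factor, had 0.42 (edgeR adjusted p-value 0.228), which was 0.26 with the length trend and 0.24 with the GC trend removed. Tbx6, a factor of paraxial mesoderm, had -1.32 (edgeR adjusted p-value 0.272) at 0.579 to 1.66 CPM. Myc and Ccnd1, growth genes often listed as Wnt targets, were named after their values were seen. Myc was at 38.2 and 40.5 CPM untreated and at 39.2 and 41.8 CPM in CCCP. Ccnd1 was at 126 and 253 CPM untreated and at 151 and 167 CPM in CCCP, with both CCCP libraries between the untreated ones. Of its exon bases, 818 (21.7%) overlap LTO1 on the opposite strand.

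**Figure D4:**
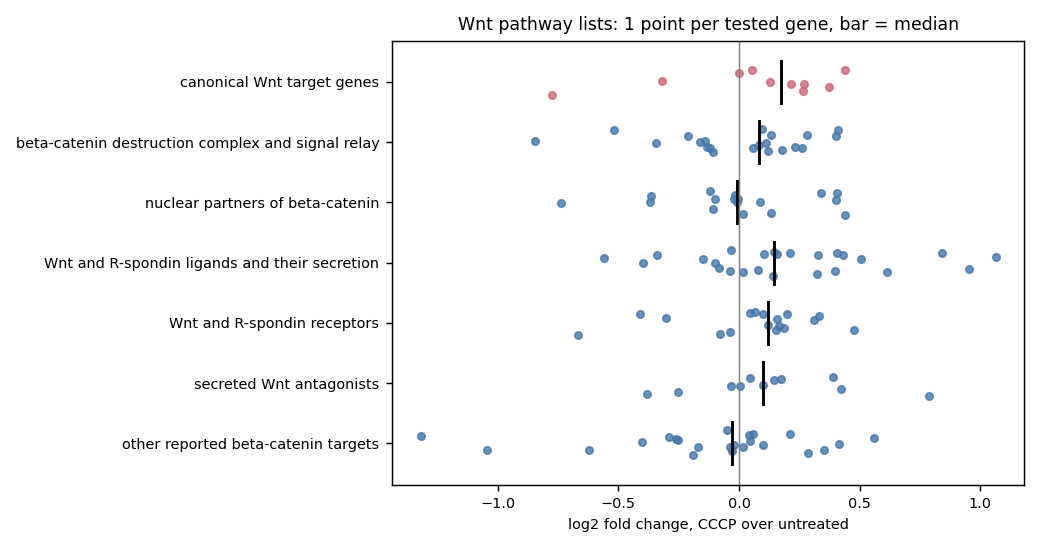
Log2 fold change of CCCP over untreated (horizontal axis) for every tested gene of the 10 Wnt targets and of 6 other Wnt pathway lists, 1 point per gene with a bar at the list median. Medians lie between -0.03 and 0.17, and no point passed the test.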

How the data were processed

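The authors deposited raw counts of reads per gene, made with featureCounts 2.0.3 on the mm10 RefSeq annotation, per the file headers. The headers give exons as the counted feature, summed by gene, with no option for strand, read pairs as fragments, multi-mapping or multi-overlapping reads. The submitters' processing notes also name FastQC, HISAT2, SAMtools and Subread. The exon length per gene is in the same deposited tables.

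Counts were tested with edgeR 4.0.16 (glmQLFit and glmQLFTest, two-sided, TMM scaling, filterByExpr with a minimum count of 10 and total of 15, group as the only term) in R 4.3.3. P-values were adjusted by Benjamini-Hochberg over 19837 genes, with a threshold of 0.05. A standard error is the size of the log2 fold change over the square root of F. CPM and RPKM were computed from the counts, RPKM with the exon length on the main chromosomes. Total counts were 48216849 and 37360968 (untreated) and 48827826 and 37579087 (CCCP). The fits were tested on simulated data.

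Alternatives were other scalings and filters, DESeq2 1.42.0, a replicate block, removal of length or GC trends by lowess offsets (GC of the longest GENCODE M21 transcript), and each library left out. All 10 members are named, and from each other pathway list the gene of smallest p-value in each direction with a mean CPM of at least 1. The members and lists were chosen with earlier results of these data known. No gene set was tested.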

Additional observations from a re-analysis of the deposited data

How the results depend on the processing

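No member was called under 12 of 14 alternatives. The number of genes called, 0 in edgeR with all libraries, was 1107 without a filter, 594 in DESeq2, 2118 with the replicate block, 1536 with the replicate block and the length trend removed, and 10 to 46 with 1 library left out. The replicate block called 2 members, Nkd1 (adjusted p 0.0218) and Lgr5 (0.0161), where it called 10.7% of all genes. With the length trend removed as well it called 4, Tcf7 (0.0301), Nkd1 (0.00747), Nkd2 (0.0450) and Lgr5 (0.0220), where it called 7.74%. Same-numbered libraries deviated together (correlation 0.36 across genes), but the labels give the numbers no meaning, so the block is no pairing from the design.

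Signs turned for small values. Sp5 had 0.0042 with DESeq2 size factors, 0.014 without a filter, 0.0056 in DESeq2 and 0.0030 with the replicate block, and ran from -0.17 to 0.21 with 1 library left out. Lef1 had -0.0026 with total counts only and ran from -0.081 to 0.24, Tcf7 from -0.034 to 0.69 and Dkk2 from -0.64 to 0.0065. Axin2 had -0.0075 with the GC trend removed. The causes were not tested.

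In the other lists, genes called without a filter, in DESeq2, with the replicate block and with the replicate block and length trend removed were 2, 1, 4 and 2 for ligands, 1, 1, 1 and 1 for receptors, and 2, 1, 4 and 3 for the destruction complex, where these settings called 3.43%, 3.32%, 10.7% and 7.74% of all genes. Nuclear partners had 2 and 3, and other targets 1 and 1, with the block. The median of the receptors was 0.063 with total counts only, 0.10 with upper quartile scaling, 0.13 without a filter, 0.10 at a CPM of at least 1, 0.16 with the length trend removed, 0.16 with the block as well, 0.0045 with the GC trend removed, and 0.10 to 0.15 with 1 library left out. The destruction complex had -0.055 with the GC trend removed, 0.027 with total counts only, and 0.035 to 0.11 with 1 library left out. Nuclear partners had 0.10 with the length trend removed, 0.13 with the block as well, and -0.069 to 0.11 with 1 library left out. Other targets had -0.085 with total counts only, 0.029 with the replicate block, 0.0093 with the block and length trend removed, -0.078 with the GC trend removed, and -0.042 to 0.049 with 1 library left out. With 1 library left out, the ligands ran from 0.10 to 0.48, the secreted antagonists from -0.056 to 0.19 and the 10 members from 0.0023 to 0.25. A library left alone in its group was assumed to vary like the other group.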
